A study of Arabidopsis thaliana with 88 samples.

Results

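PAI1 (AT1G07780), PAI2 (AT5G05590) and PAI3 (AT1G29410) are the 3 genes of Arabidopsis thaliana described here. They were taken by identifier from tables of gene-body and promoter methylation that cover 62018 loci of the Araport11 annotation, among them 26928 protein-coding genes. The 3 genes were chosen by their measured methylation differences between accessions, in gene bodies and promoters, so these levels are given as a description, with no test between accessions. The study measured DNA methylation by whole-genome bisulfite sequencing in leaves of 32 natural accessions, inbred lines descended from wild plants, which carry numbers as names and serve as the genotypes. Accession 6909 is Col-0, the line of the reference genome. All plants were untreated and grew on soil at 21 °C with 16 h of light, and each library pooled leaves of several plants of 1 accession. The leaf stage is given as 14 for all libraries. The 88 libraries fall unevenly on the accessions, with 1 library for 5486, 9512 and 9845, 2 libraries for 13 accessions, 3 for 5 and 4 for 11. Libraries with the same replicate number came from plants sown and sampled together, called a round here, and there were 19 libraries in round 1, 18 in round 2, 26 in round 3 and 25 in round 4.

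The PAI genes encode phosphoribosylanthranilate isomerase, an enzyme of tryptophan synthesis that acts between anthranilate phosphoribosyltransferase and indole-3-glycerol phosphate synthase. They are close copies of each other and a textbook case of natural gene silencing. In the accession Wassilewskija an inverted repeat of PAI genes is known to set off cytosine methylation of PAI copies elsewhere in the genome, in all sequence contexts. Plants methylate cytosines followed by G (CG), those in CHG and those in CHH, H being A, C or T. CG methylation alone is common in the bodies of expressed plant genes, whereas CHG and CHH methylation is best known from transposons and silenced repeats. Numbers and arrangement of PAI copies in these 32 genomes were not analysed here.

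Levels are the share of methylated cytosine in a locus, given here in percent. The tables hold no read counts, so depth is unknown for all of these levels, and a level in a short locus may rest on few reads. Values of exactly 1 in CHG or CHH were left out, because they appear to mark regions that no read covered, a reading of the values that no label states. Because the 3 genes are near-identical in parts and no source used here tells how reads that match several copies were treated, the share of each level that comes from another PAI copy is uncertain. On build TAIR10, PAI1 lies at Chr1:2409865-2412777, PAI2 at Chr5:1666471-1668569 and PAI3 at Chr1:10297750-10300073, all on the minus strand. A value was present for PAI1 in 87 libraries and for PAI2 and PAI3 in 88 in each context, and the missing one was a 6069 library.

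In gene bodies the 3 genes carried CHG methylation in a minority of accessions and next to none in the rest. At a level of at least 10%, a limit set for this description, PAI1 was methylated in 10 of the 32 accessions, PAI2 in 9 and PAI3 in 8. The accessions were nested. All 3 genes were methylated in 1254, 5784, 6069, 6184, 6220, 6244, 6911 and 9905, PAI1 and PAI2 but not PAI3 in 9518, and PAI1 alone in 9512. The other 22 accessions, Col-0 among them, had none of the 3 at that level.

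The gap between methylated and unmethylated accessions was wide. For PAI1 the lowest mean above the limit was 26.2% in 9512 and the highest below it 1.67% in 8244. For PAI2 the corresponding means were 45.7% in 9518 and 5.88% in 9057, and for PAI3 25.2% in 6244 and 5.24% in 9518. By library the separation was complete for 2 of the genes. All 24 PAI1 libraries of the 10 accessions reached 10% and the lowest of them had 19.4%, whereas 0 of the 63 other libraries did and the highest had 6.52%. All 20 PAI3 libraries of the 8 accessions reached it with a lowest value of 15.1%, whereas 0 of 68 others did and the highest had 8.57%. For PAI2 all 24 libraries of the 9 accessions reached it, the lowest at 20%, and 2 of the 64 others did, 1 of 6021 with 12.5% and 1 of 9057 with 11.8%.

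**Figure D1:**
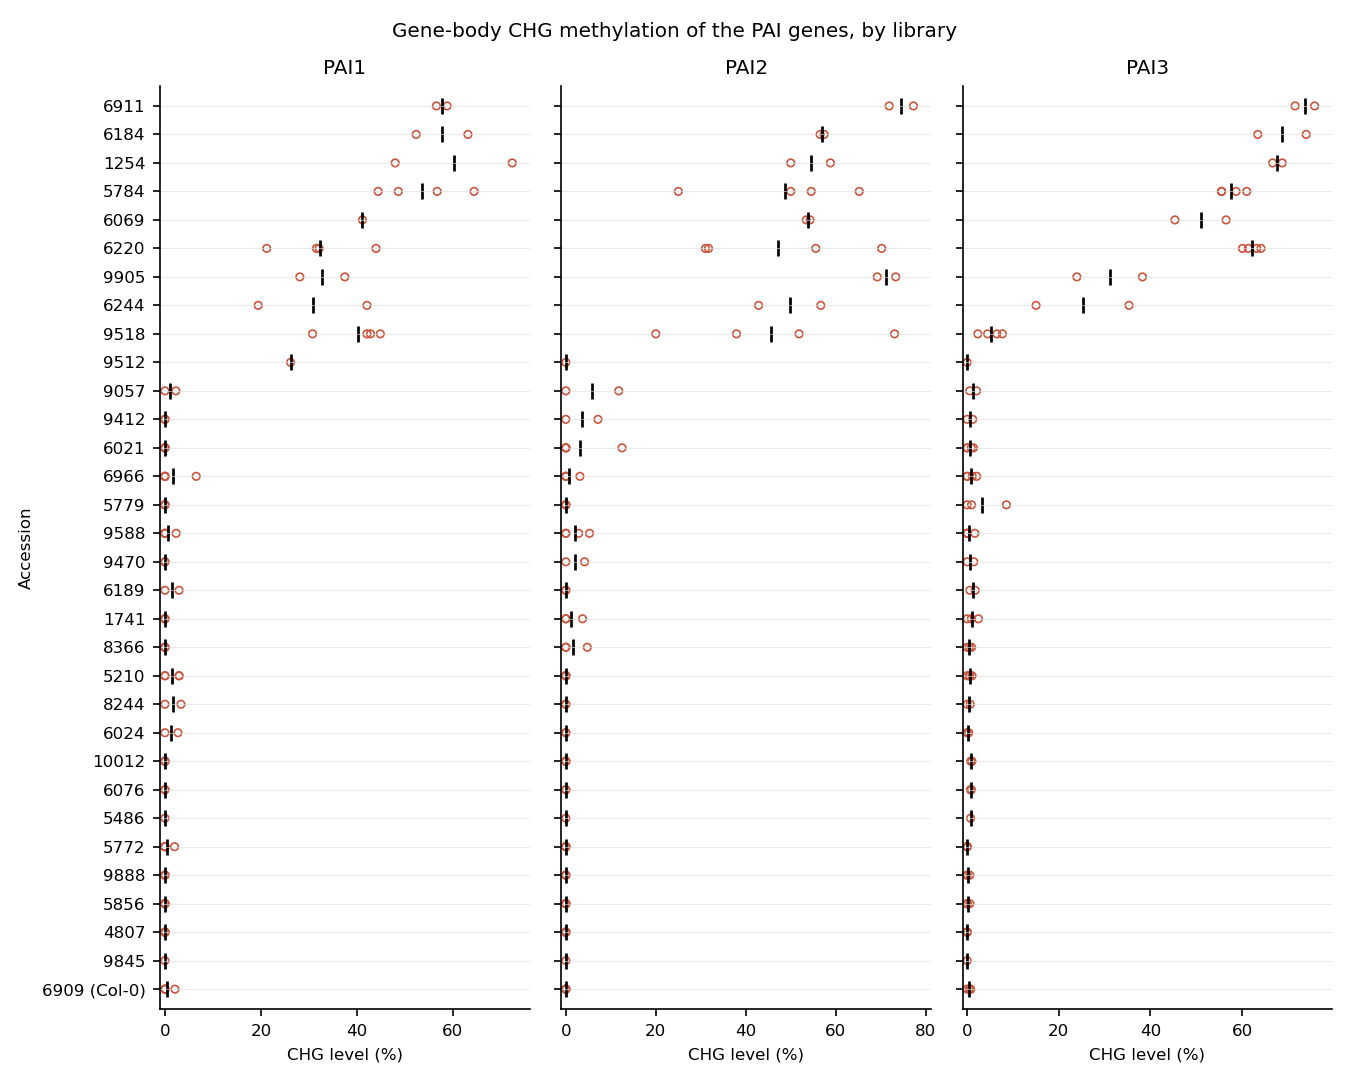
Gene-body CHG level (%) of PAI1, PAI2 and PAI3 in every library, 1 row per accession, with a bar at the mean over the libraries of the accession. Libraries of 8 accessions stand to the right in all 3 panels, those of 9518 in 2 and that of 9512 in 1, while Col-0 (6909) stays near 0 in each.

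PAI1 CHG levels were 72.4 and 48.0% in the libraries of 1254, 63.2 and 52.4% in 6184, and 56.6 and 58.8% in 6911. They were 56.8, 44.4, 64.4 and 48.6% in 5784, 30.8, 42.1, 42.9 and 44.9% in 9518, and 44.0, 32.1, 31.6 and 21.2% in 6220. Against these, the libraries of Col-0 had 2.08, 0, 0 and 0%. The lowest methylated library thus stood far above the highest of Col-0, and no group overlapped it. The remaining accessions were 6069 with 41.2% in its 1 library with a value, 9905 with 28.1 and 37.5%, 6244 with 42.1 and 19.4%, and 9512 with 26.2% in its single library. The order of neighbours among the 10 was mostly not resolved by the replicates, since library ranges overlapped in 8 of 9 neighbouring pairs. Further apart in the order the ranges did separate. All libraries of 1254, 6184, 6911 and 5784 had at least 44.4%. Those of 6220, 6244, 6069, 9905 and 9512 had at most 44.0%, and 9518 spanned both sides.

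PAI2 had the highest library value of the 3 genes. Its CHG level was 71.9 and 77.3% in 6911 and 69.2 and 73.3% in 9905, against 0% in all 4 libraries of Col-0. Replicates were further apart elsewhere. The libraries of 9518 had 73.1, 20, 37.9 and 51.9%, those of 6220 had 55.6, 31.7, 70.2 and 31.0%, and those of 5784 had 50.0, 54.5, 25.0 and 65.2%. In 1254, 6184, 6069 and 6244 the values lay between 42.9 and 58.8%. The SD over all accession means was 25.7 percentage points and the pooled SD between libraries of 1 accession 8.36 points, the widest replicate spread of the 3 genes in this context. Library ranges overlapped in 7 of 9 neighbouring pairs among the 10 accessions methylated at any PAI gene.

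PAI3 was the most even among replicates, with a pooled SD of 3.12 percentage points against 25.2 points between accessions. Its CHG level was 71.6 and 75.8% in 6911, 74.0 and 63.4% in 6184, and 68.8 and 66.7% in 1254. It was 61.4, 63.2, 60.1 and 64.1% in 6220 and 55.6, 61.0, 55.5 and 58.7% in 5784, against 0.463, 0, 0.781 and 0.685% in Col-0. Lower values stood in 6069 with 45.4 and 56.5%, 9905 with 38.3 and 23.9%, and 6244 with 15.1 and 35.3%. The library ranges of 6911, 6184 and 1254 were all above 63%, clear of those of 9905 and 6244, while 5 of the 9 neighbouring pairs overlapped.

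Accessions did not rank the 3 genes alike. In 9905 the mean CHG level was 32.8% for PAI1, 71.3% for PAI2 and 31.1% for PAI3, and both PAI2 libraries were above all libraries of the other genes. In 6244 the means were 30.8, 49.8 and 25.2%, and in 6220 they were 32.2, 47.1 and 62.2% for PAI1, PAI2 and PAI3 in that order. In 9518 they were 40.2% ± 6.37 (SD, n = 4) for PAI1 and 45.7% ± 22.4 (n = 4) for PAI2, but 5.24% ± 2.35 (n = 4) for PAI3. The 4 PAI3 libraries of 9518 read 7.69, 4.46, 2.34 and 6.48%, and none overlapped the libraries of its other 2 PAI genes. In 9512, with 1 library, PAI1 had 26.2% while PAI2 and PAI3 had 0%. Because the accessions fall into separate clusters, no correlation between the genes is given.

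Set against protein-coding genes as a whole, CHG methylation of gene bodies at 10% in any accession was uncommon. Of 25923 protein-coding genes with CHG values, 2454 (9.47%) reached 10% in at least 1 accession, and 135 (0.521%) did so in 8 to 10. The band of 8 to 10 was taken from the PAI genes. It leaves out genes with more than 10 such accessions, which were not counted apart. By the SD between accessions PAI2 ranked 24, PAI3 28 and PAI1 71 among the 25923 genes. These ranks describe the contrast by which the genes were chosen and are no evidence of their own.

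CG methylation was high in the CHG-methylated accessions, except in 9512 at PAI1, and its level elsewhere differed among the 3 genes. PAI1 had CG means of 35.7% in 9512 to 91.7% in 6069 across its 10 CHG-methylated accessions, against 0 to 18.3% in the 22 others, with a median of 1.82%. PAI2 had 74.3 to 100% across its 9, against 0 to 40.9% in the 23 others, with a median of 6.79%. The 100% is that of 6911, whose 2 libraries both read 100% and can be regions without CG data. Values of 100% CG were kept in 5 libraries at PAI1, all of CHG-methylated accessions, and in 6 at PAI2, and carry the same doubt. PAI3 had 56.6 to 85.3% across its 8, against 0 to 61.9% in the 24 others, with a median of 23.5%. For PAI1 and PAI2 the accession ranges of CG were therefore apart, whereas for PAI3 they overlapped.

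PAI3 was CG-methylated in a number of accessions without CHG methylation. Of the 24 accessions under 10% CHG at PAI3, 14 had a CG level of at least 20% and 5 of at least 40%. The counts were 4 and 1 of 23 at PAI2, and 0 and 0 of 22 at PAI1, with no test of the difference between genes. In 6189 the PAI3 libraries had 65.8 and 58.0% CG and a mean of 1.18% CHG, and in 9412 they had 54.1 and 63.4% CG and a mean of 0.610% CHG. Those values lie within the CG range of the CHG-methylated accessions, where 9905 had 64.7 and 48.4%. Col-0 had 25.0, 33.3, 34.7 and 19.4% CG at PAI3, a mean of 28.1% ± 7.21 (SD, n = 4), against means of 9.004% ± 4.68 at PAI1 and 8.61% ± 7.83 at PAI2. At the low end, the 3 libraries of 10012 were all at 0% CG at PAI3. At PAI2 the highest CG level without CHG methylation, in 8366, rested on libraries of 100, 0 and 22.6%, and the first of these can be a region without CG data.

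**Figure D2:**
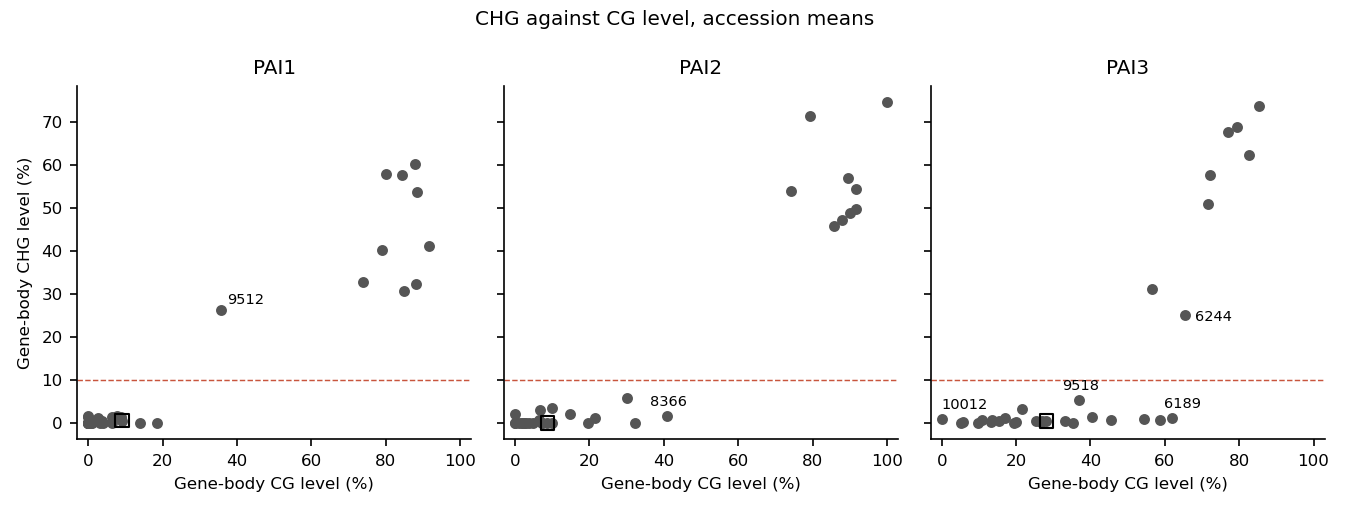
Mean gene-body CHG level (%) against mean CG level (%) for the 32 accessions, 1 panel per gene, with a dashed line at 10% CHG and an open square for Col-0 (6909). Points above the line sit at high CG levels, except 9512 at PAI1 with 35.7% CG. PAI3 also has points between 40% and 62% CG that lie below the line.

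CHH methylation, the context with the lowest levels, marked the same accessions with weaker separation. At PAI1 it was 1.58% in 9512 to 29.2% in 6069 across the 10 CHG-methylated accessions, against at most 2.44% in the others. At PAI2 it was 8.61% in 9518 to 33.0% in 1254 across the 9, against at most 3.39%, and at PAI3 1.73% in 6244 to 18.04% in 1254 across the 8, against at most 0.945%. The ranges overlapped at PAI1 because of 9512 alone, and were apart at PAI2 and PAI3.

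The CHH level did not follow the CHG level in every accession. In 6184 the PAI1 libraries had 4.03 and 4.55% CHH beside CHG levels over 52%, while in 9518 they had 19.0, 19.0, 8.27 and 17.5% CHH beside CHG levels under 45%. In 6220 PAI1 had 30.2% in the first round and 6.30, 8.82 and 7.97% in the others, so the accession mean of 13.3% lies above 3 of its 4 libraries. In 9905 the PAI2 libraries had 31.8 and 8.00% CHH although their CHG levels were within 5 points of each other. PAI3 was more even, with 17.9, 11.9, 11.2 and 13.8% in 5784, 13.1, 8.41, 13.2 and 10.5% in 6220, and 19.1 and 17.0% in 1254, against 0, 0, 0.707 and 0.950% in Col-0.

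**Figure D3:**
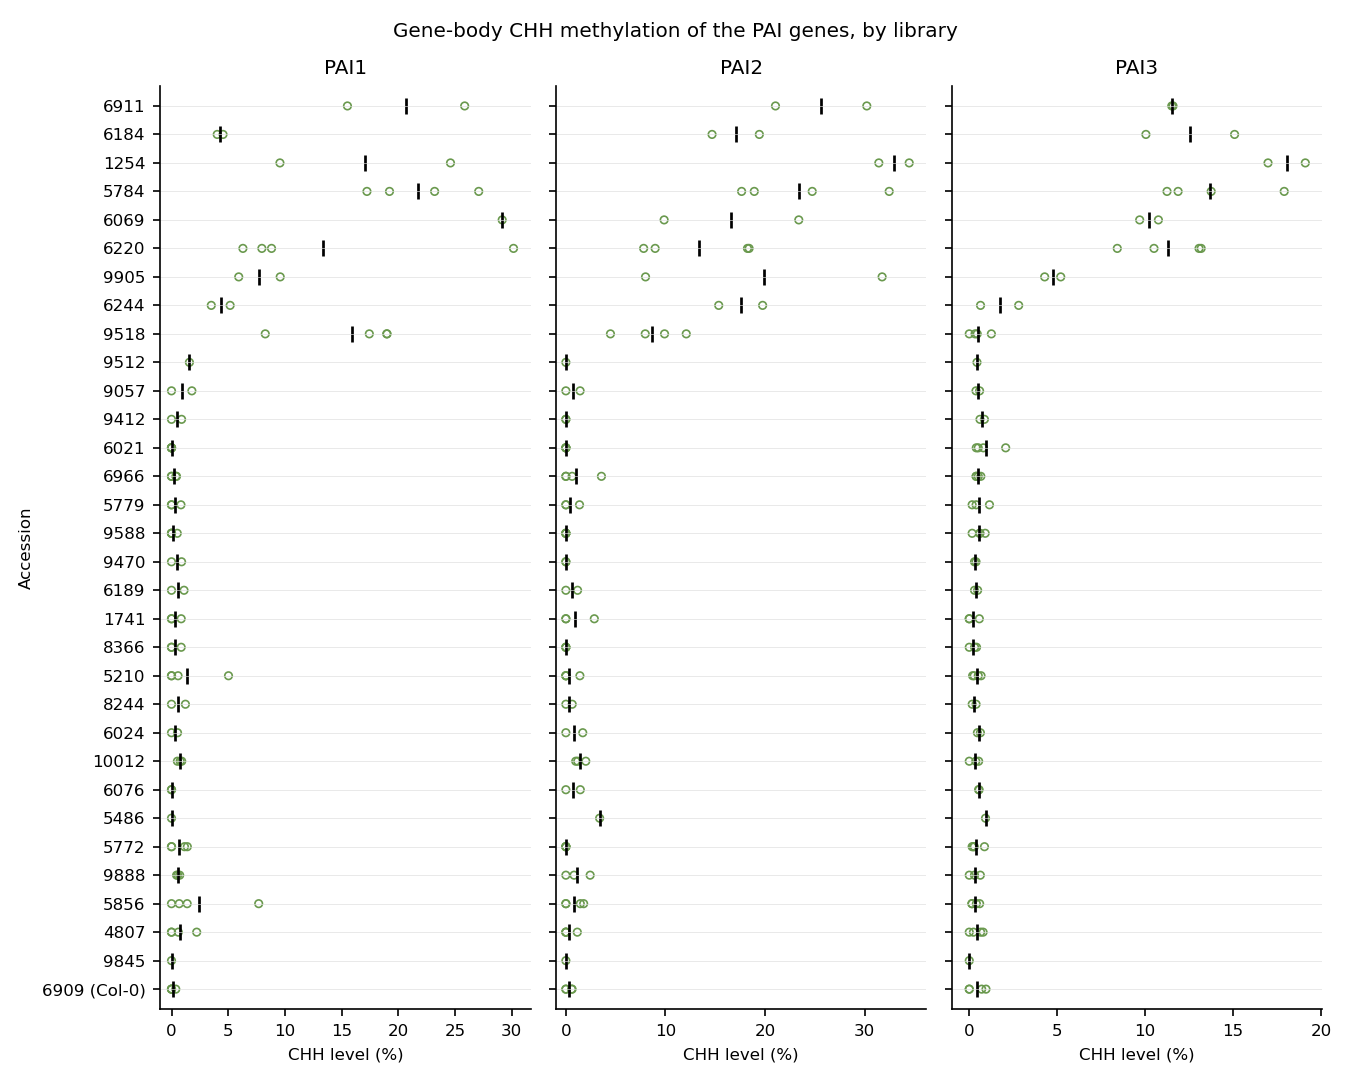
Gene-body CHH level (%) of PAI1, PAI2 and PAI3 in every library, 1 row per accession in the order of the CHG plot, with a bar at the accession mean and a separate axis range per panel. At PAI1 the values of 6184 and 6244 lie near 5% although these accessions are CHG-methylated, and 1 library of 6220 stands at 30.2%.

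The growth round, which had no part in the choice of the genes, could be tested. With accession as a covariate, round passed the threshold for none of the 3 genes in any context in this fit, and 0 of the 3 had an unadjusted p under 0.05. Their adjusted p lay between 0.874 and 0.983 (limma, Benjamini-Hochberg over all loci). Over all gene-body loci the round term called 0% in CG and CHH and 0.00248% (1 of 40282 loci) in CHG, with 2028, 2808 and 2160 loci at an unadjusted p under 0.05 in CG, CHH and CHG. CHG-methylated libraries were present in every round, with 4 of 19, 5 of 18, 8 of 26 and 7 of 24 libraries at PAI1 in rounds 1 to 4.

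The promoter window reaches 200 bp to each side of the gene start. In accessions with a CHG-methylated gene body it had lower CG and CHG levels than that body at PAI2 and PAI3. For PAI2 the CHG level of the window was 0% in 9905 to 47.6% in 1254 across the 9 accessions with a CHG-methylated body, and in each of these the gene body was higher. In CG the window had 23.4% in 9905 to 73.1% in 6184, again below the gene body in 9 of 9. The libraries read 46.2 and 100% in 6184, and 28.6 and 100% in 6911. Each of these values of 100% can be a region without CG data, as can the body of 6911. The window of PAI2 in Col-0 had means of 0% CG, 0% CHG and 0.610% CHH. In accessions outside the 9 the window reached 12.5% CHG, in 9057, so the CHG ranges overlapped. In CG the highest outside the 9 was 50.0% in 6189, from libraries of 0 and 100%, and the second of these can be a region without CG data. The next highest outside the 9 was 8.33%, so the overlap in CG rests on that library. In CHH the window had 0 to 31.0% across the 9, with a higher body in 8 of 9 and 19.2% against 17.6% in the body in 6244, while the single library of 5486 outside them had 25.0%. Over all 32 accessions the PAI2 body was above the window in 28 in CG, 16 in CHG and 16 in CHH.

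For PAI3 the window had 1.85% CHG in 6244 to 55.1% in 6911 across the 8 accessions, against at most 2.50% elsewhere, and the gene body was higher in 8 of 8. Between those ends, 5784 had 19.0%, 6184 had 16.5%, 1254 had 14.2%, 6220 had 13.8%, 6069 had 9.34% and 9905 had 6.93%. In CG the window had 0% in 6244 to 33.9% in 1254, against at most 1.32% elsewhere. CG methylation was thus low around the start of PAI3 in accessions without CHG methylation. The body had a higher CG level than the window in 31 of 32 accessions, with a median difference of 30.7 percentage points. The round term called neither the PAI2 nor the PAI3 window in any context, and called 0% of all windows in each context, with 1547, 1250 and 2021 windows at an unadjusted p under 0.05 in CG, CHG and CHH.

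The PAI1 window, the remaining one, had a value in 31 of 88 libraries in CG and CHH and in 14 in CHG, did not pass the requirement of a value in 80% of the libraries, and its levels are not read further. HTB1, a histone H2B gene, starts 160 bp beyond PAI1 on the other strand. Its window overlaps the PAI1 window and had CHG values in 75 libraries. Since the PAI1 window had CHG values in 14, most of the HTB1 values appear to rest on sequence outside it. They are therefore no measure of the PAI1 window. The highest accession mean of the HTB1 window was 3.33% CHG, in 5772, which is not among the 10. The accession term did not pass the threshold for the HTB1 window (limma, adjusted p = 1).

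The authors' own transcript annotation divides the gene bodies further, since it holds noncoding transcripts on the plus strand, antisense to the PAI genes. Their levels come from the same reads as those of the genes and are no independent measurement. The transcript opposite PAI1, CUFF_NC.255 at Chr1:2409869-2412104, spans most of the gene and repeated its levels, with 26.8 to 60.2% CHG in the 10 accessions and at most 1.92% elsewhere. PAI3 has 2 such transcripts, of which CUFF_NC.1022 at Chr1:10299268-10299840 is nearer the gene start, and CUFF_NC.1021 at Chr1:10298601-10299003 lies in the middle of the gene.

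These transcripts placed the CG methylation of PAI3. Over CUFF_NC.1021 the median CG level of the 32 accessions was 62.5%, with 76.9 to 97.8% in the 8 CHG-methylated accessions and up to 90.1%, in 9412, elsewhere, and Col-0 had 58.8%. Over CUFF_NC.1022 the median was 4.24% and Col-0 had 2.27%, while the 8 accessions had 50.0 to 100%. CHG levels separated the accessions in both transcripts, with 44.1 to 78.2% against at most 11.9% in the middle and 13.8 to 76.3% against at most 7.47% nearer the start. In both, the highest of the other accessions was 9518, whose PAI1 and PAI2 were methylated. The middle of PAI3 was thus CG-methylated in most accessions, and the stretch toward the start mainly in the 8. An exception was the single library of 9845, at 100% CG over CUFF_NC.1022, which can be a region without CG data. Levels of 100% among the 8 carry the same doubt. Another was 9518, with 81.25% CG in the promoter window of CUFF_NC.1022, around the start of that transcript. There the 8 had 57.6 to 100% and the median was 5.0%.

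PAI2 also has 2 antisense transcripts. Over CUFF_NC.9126 at Chr5:1668042-1668572, which covers the gene start, the 9 accessions had 75.0 to 100% CG, against at most 30.0% elsewhere, and 0 to 64.4% CHG, against at most 9.09%. CHH methylation reached 57.8% there among the 9, against at most 5.56% elsewhere. Over CUFF_NC.9125 at Chr5:1667055-1667906 the 9 had 43.3 to 87.3% CHG, against at most 14.3% in 9412, but CHG values were present in 61 of 88 libraries, under the required 80%, so these levels are given without further use. Apart from levels of 100%, which can be regions without CG data, PAI2 was thus CG-methylated up to its start in the 9 accessions. Its CHG level there included 0%. The authors' protein-coding locus for PAI2, CUFF_PC.18173 at Chr5:1663954-1668572, extends past the end of the gene over the neighbouring gene. Over that longer locus the 9 accessions had 5.79 to 18.3% CHG, against at most 1.29% elsewhere. Some of the 9 were thus under 10% there, with 5.79% in 1254.

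The genes next to the PAI genes had little CHG methylation, with 1 exception. The 2 nearest protein-coding genes on each side of each PAI gene make 12 genes, of which 11 passed the filter in CHG and 12 in CG and CHH. A fit of accession as a term called 7 of 12 in CG, 1 of 11 in CHG and 1 of 12 in CHH at an adjusted p under 0.05 (limma's moderated F-test with Benjamini-Hochberg adjustment over all loci). Over all gene-body loci it called 64.0% in CG, 20.2% in CHG and 13.9% in CHH, so the flanking genes were near or below these shares. In CHG, 11 of the 12 flanking genes had no accession mean above 2.78%. RPS15A, a ribosomal protein gene that starts 73 bp past the end of PAI1, had a highest CHG mean of 1.52% (limma, adjusted p = 0.769), and HTB1 on the other side had 1.67%.

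AT1G07795, the second gene upstream of PAI1, was the flanking gene that was called. It had 15.8% CHG in 6911, against a median of 0.159% over all accessions (limma, adjusted p = 2.52e-11), and 7.88% CHH in 6911 (adjusted p = 6.85e-15). The other accessions with PAI1 methylation did not share this level, as the neighbour plot shows. FAD8, a plastid fatty acid desaturase gene whose end overlaps that of PAI2, was left out of the 12 for that overlap and was looked at after its values were seen. FAD8 had 7.33% CHG in 6911, 4.62% in 9518 and 3.68% in 9905, and at most 1.34% in the rest. These levels can include cytosines that FAD8 shares with PAI2, so they are no separate measure of a neighbour and no test is given. In promoter windows 1 of 12 flanking genes was called in CG, 1 of 10 in CHG and 1 of 12 in CHH, against 26.2, 14.7 and 10% of all windows. The shares of protein-coding windows were 17.9, 10.1 and 6.85%. The CHH call was RPS15A with 33.3% in 6069 (limma, adjusted p = 7.41e-15). That window overlaps the end of PAI1, so its level can include cytosines of PAI1 and is no separate measure of a neighbour. Without the libraries of round 3 the adjusted p (limma) was 0.9995. No transposable element fragment of the annotation lay within 2 kb of a PAI gene.

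**Figure D4:**
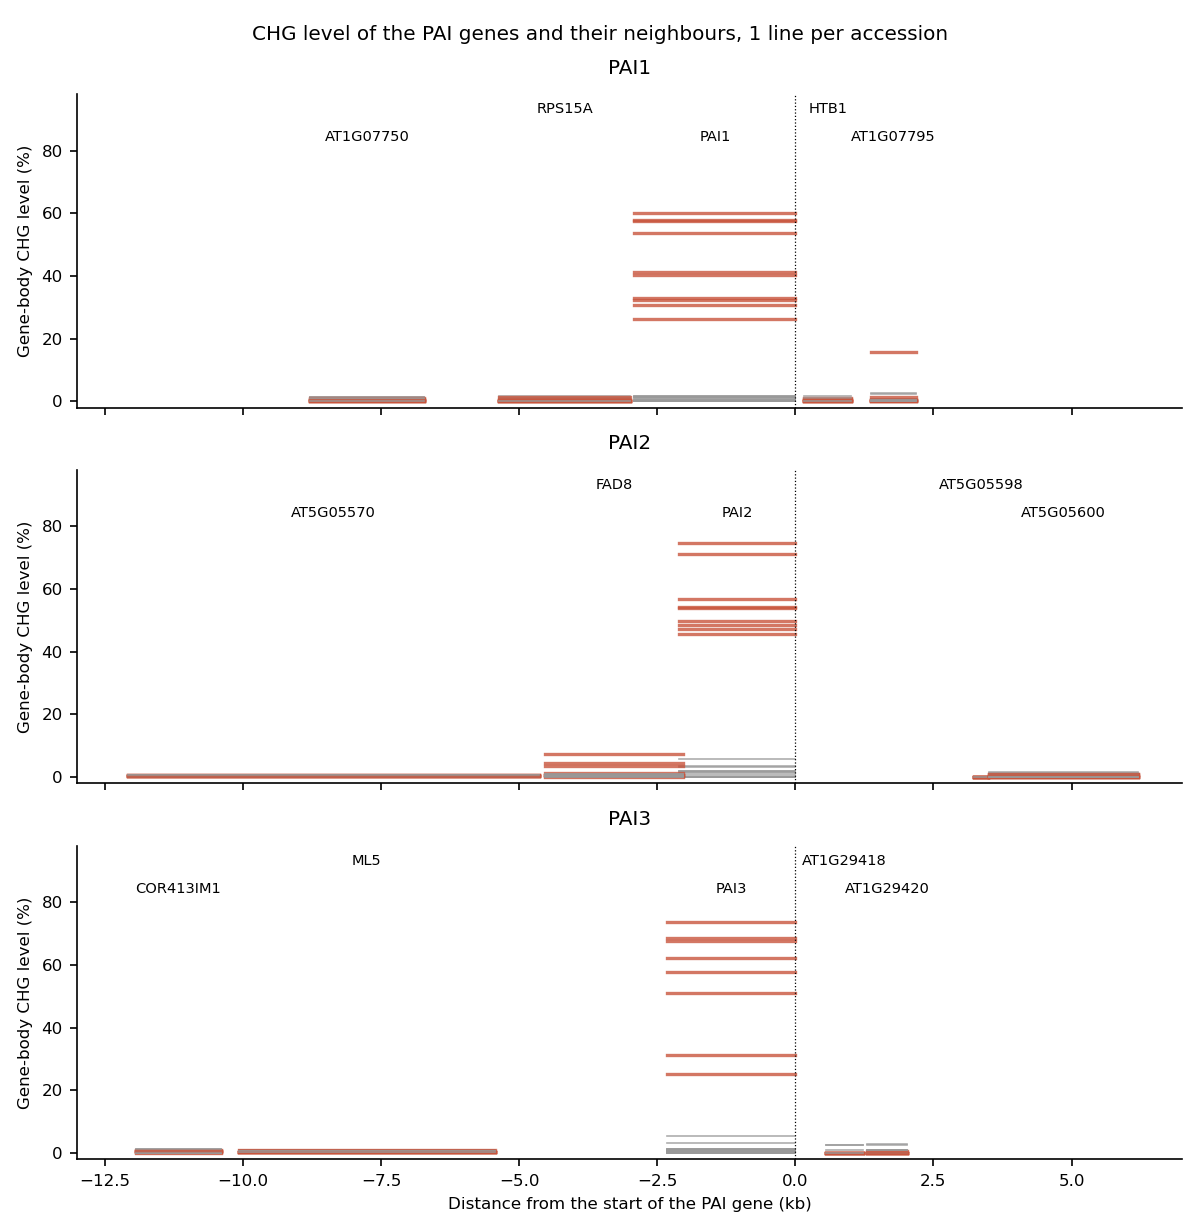
Mean gene-body CHG level (%) of each PAI gene and its neighbours in the 32 accessions, plotted as lines over the extent of each gene against the distance (kb) from the start of the PAI gene, with the PAI gene to the left of 0. Red lines are accessions with at least 10% CHG at that PAI gene and grey lines the others, and of the flanking genes in view only AT1G07795 has a line above 10%, at 15.8%; EMB2771, further than 12 kb from PAI2, is outside the range.

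The rest of the tryptophan pathway did not share the CHG pattern of the PAI genes. The list held 13 genes, namely ASA1, ASA2, ASB1 and AT5G57890 for anthranilate synthase, TRP1 for anthranilate phosphoribosyltransferase, AT2G04400 and AT5G48220 for indole-3-glycerol phosphate synthase or its relative, TSA1 and AT4G02610 for tryptophan synthase alpha or its relative, and TSB1, TSB2, AT5G28237 and TSBtype2 for tryptophan synthase beta. All 13 passed the filter, and the accession fit called 13 in CG, 2 in CHG and 2 in CHH, or 100, 15.4 and 15.4%, against 64.0, 20.2 and 13.9% of all gene-body loci. Among protein-coding genes alone the fit called 77.1, 13.4 and 8.49% in CG, CHG and CHH. The CG share of the pathway is above both backgrounds, a difference that was not tested, and the CHG share of the pathway is near both. Its CHH share, from 2 genes, is near that of all loci and above that of protein-coding genes, a difference that was not tested. Growth round passed limma's threshold for 0 of the 13 in gene bodies in each context, with 1, 2 and 0 at an unadjusted p under 0.05 in CG, CHG and CHH.

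In CHG 1 pathway gene reached 10% in any accession, AT5G28237, with 12.9% in 5486 and a median of 5.01% over the 32 accessions (limma, adjusted p = 2.87e-06). Unlike the PAI genes it had no accessions set apart at high levels. The other called gene was TSB1, whose highest mean was 1.93% (adjusted p = 0.0212), a call lost without round 2, 3 or 4, where the adjusted p was 0.0866 to 0.265. The remaining genes had highest means of 0.748 to 3.01%, the top being TSA1 at 3.01%. In CHH the calls were AT5G28237, at most 5.87% (adjusted p = 0.0164), and AT2G04400, at most 0.859% (adjusted p = 0.0261), and both were lost when single rounds were left out, with adjusted p up to 0.231 and 0.467.

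In CG the pathway genes had low to intermediate levels. Median levels over accessions were 2.51 to 27.9% for the 13 genes, and the highest accession mean was 49.2%, in AT2G04400 of 6184. The PAI genes had medians of 6.24, 9.90 and 30.7% for PAI1, PAI2 and PAI3 over the 32 accessions, and higher maxima, 91.7, 100 and 85.3%. Promoter windows of the 13 were called in 0 cases in CG, 2 in CHG and 0 in CHH (limma), with 0, 3 and 0 at an unadjusted p under 0.05. Among protein-coding windows the accession fit called 17.9, 10.1 and 6.85%.

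**Figure D5:**
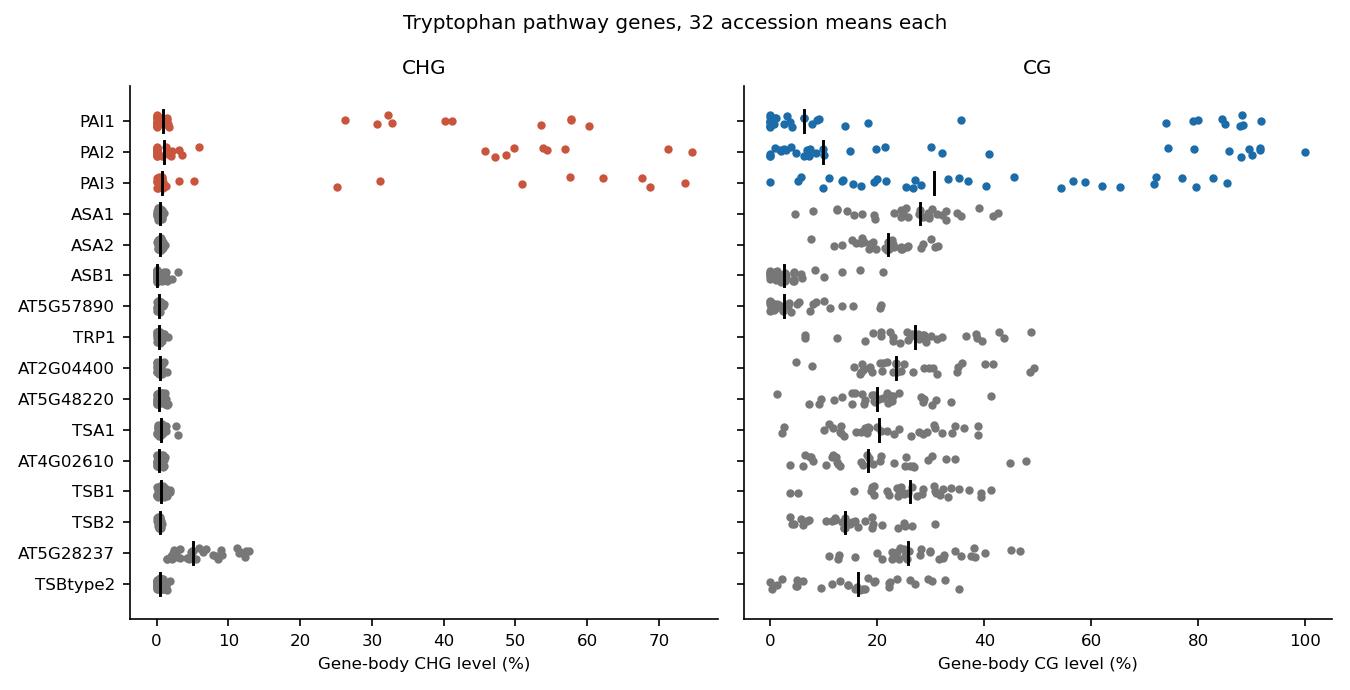
Mean gene-body CHG (left) and CG (right) levels (%) of the 3 PAI genes and the 13 other tryptophan pathway genes, 1 point per accession and a bar at the median. CHG means of the PAI genes reach 60.2, 74.6 and 73.7% while the pathway genes stay at or below 12.9%.

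The 5 genes most alike to each PAI gene, picked as those with the highest values, followed it only in part. Likeness was the Pearson r of gene-body CHG means over the 32 accessions, among 1631 protein-coding genes with an SD of at least 5 percentage points, and is a description that rests on few methylated accessions. AT3G17570 was nearest to PAI3 (r = 0.841) and to PAI1 (r = 0.724), and reached 10% in 6 of the PAI-methylated accessions and in 2 others, with a maximum of 61.7% in 6911. HVA22G (r = 0.717), AT1G33102 (0.710), AT5G22150 (0.705) and AT3G18330 (0.682) came next for PAI3. In that order they reached 10% in 3, 6, 4 and 5 of its 8 methylated accessions and in 0, 6, 2 and 2 others. For PAI1 the next were AT3G18330 (0.674), AT5G22150 (0.651), HVA22G (0.645) and AT1G31270 (0.618). These reached 10% in 5, 4, 3 and 5 of its 10 methylated accessions and in 2, 2, 0 and 3 others. PAI2 had another set, AT4G10740 (0.702), AT3G21980 (0.655), AT3G21970 (0.651), AT1G66490 (0.650) and AT3G22730 (0.645), each methylated at 10% or more in at most 4 of its 9 accessions. None of these genes followed all the accessions of a PAI gene.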

How the data were processed

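Leaf DNA was bisulfite-converted and sequenced as paired reads of 100 bp after tagmentation, per the labels' protocols. The authors deposited methylation levels as fractions from 0 to 1 per locus and library, in 12 tables (3 contexts, gene body or promoter, 2 annotations). The build was TAIR10, per the submitters' processing notes, whereas no source used here names the aligner, the caller or the formula of a level. All 88 columns of each table were matched to samples by accession and replicate number.

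CHH values of exactly 1 were treated as missing in all contexts, CHG values of exactly 1 as missing in CHG, and CG loci at 1 in every remaining library were dropped. Loci needed a value in 80% of the libraries. Levels were averaged over the libraries of an accession. Accession (88 libraries) and growth round (85 libraries, accession as covariate) were tested on the fractions with a moderated F-test (limma 3.58.1, R 4.3.3), with Benjamini-Hochberg adjustment across the table's loci and a threshold of 0.05. The test was checked on simulated data with normally distributed errors. The measured fractions are bounded and often 0, a shape that this check does not cover. Replicate numbers mark shared rounds per the design text. Deviations of same-round libraries from their accession means had a median r of 0.000626 in CG and 0.00352 in CHG.

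The 3 genes, the flanking and pathway lists and the rule for named genes (members, flanking genes, pathway list, the 5 most alike genes per member, overlapping loci of the authors' annotation, transposable element fragments within 2 kb) were chosen with earlier results of these data known. Symbols are those of RefSeq for TAIR10.1, used only as names, which held 13 of 13 pathway genes. Alternatives concerned missing values, filters, scale, the threshold, averaging, single rounds and a round block. Levels and figures were computed in Python 3.11.15 with pandas 2.3.3, NumPy 2.4.6, SciPy 1.17.1 and matplotlib 3.10.9.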

Additional observations from a re-analysis of the deposited data

Results flagged for a closer look

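Groups of 4 libraries were examined in 4 accessions whose replicates are given above, 5784, 6220, 9518 and Col-0 (6909), and not in the remaining accessions. A library that stood apart from the other 3 of its accession by Dixon's criterion was found in 8 of 52 groups that had any spread. Chance flags about 1 in 20 groups, a rate that does not hold for 4 of the 8, where the other 3 libraries were at 0% and any value above 0 meets the criterion. In gene bodies PAI1 CHH was 30.2% in 6220 replicate 1, against 6.30 to 8.82% in its other replicates, and 8.27% in 9518 replicate 3, against 17.5 to 19.0%. PAI3 CG was 54.4% in 9518 replicate 2, against 30.2 to 32.1%. In Col-0 replicate 1 PAI1 had 2.08% CHG and 0.377% CHH, against 0% in the other 3. In the PAI2 window 9518 replicate 4 had 66.7% CHG against 0% in the others, 5784 replicate 2 had 33.8% CHH against 5.20 to 9.68%, and Col-0 replicate 4 had 2.44% CHH against 0%. Read coverage was not analysed here, and its part in these values was not tested.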

How the results depend on the processing

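The number of accessions at or above 10% CHG stayed within 1.5 times its value in 24 of 24 alternatives for the 3 genes, with 9 to 10 accessions for PAI1 and PAI2 and 8 to 9 for PAI3 across them. These alternatives kept the Araport11 gene bodies, and the authors' own loci were not among them. Mean levels moved by less than the replicate spread in 111 of 114 alternatives, and the growth-round call stayed absent in 131 of 131. The exceptions were the PAI1 window with values as deposited, whose mean was then 69.3% CG, 83.9% CHG and 64.8% CHH, where the values of exactly 1 that were otherwise left out enter the mean. Treating CG values of exactly 1 as missing, chosen after seeing the data, gave mean CG levels over accessions of 25.7% for PAI1 and 28.4% for PAI2, against 27.5 and 32.0%. With values as deposited the accession term called 18880 loci in CHG and 21403 in CHH gene bodies, and 21091, 22128 and 22995 windows in CG, CHG and CHH; with a value required in every library these were 4081, 3119, 3919, 1049 and 1183, from fewer loci. The replicate block (growth round as a covariate) called 7942 gene bodies in CHG against 8089 and changed no count by over 1.5 times. Flanking genes: leaving out single replicates gave 1 to 2 calls in CHG and CHH gene bodies, 0 to 2 in CG windows, 0 to 1 in CHG windows and 1 to 2 in CHH windows; windows had 0 calls in each context with a value in every library, 2 in CHG and 0 in CHH as deposited, and 0 in CHG with accessions of at least 2 libraries. Pathway genes: leaving out single replicates gave 1 to 3 calls in CHG and 0 to 2 in CHH gene bodies, 0 to 3 in CG, 1 to 3 in CHG and 0 to 3 in CHH windows; the arcsine scale gave 1 in CHG gene bodies; windows had 2, 5 and 3 calls in CG, CHG and CHH as deposited, and in CHG 0 with a value in every library and 1 with accessions of at least 2 libraries. The round term called 1, 9 and 2 loci in CG, CHG and CHH gene bodies when a value in 20% of libraries sufficed, 0 CHG gene bodies and 1 CG window without the accession covariate, and 0 to 1 in CHG gene bodies and in CHG windows when single replicates were left out. Where no cause is given it was not tested. Missing read counts limit every level.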
